A study of Mus musculus with 6 samples.

Results

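CTCF regions in the introns of long genes were the 5661 of 57662 CTCF-bound regions of the mouse genome that lay on chromosomes 1 to 19 or X, wholly inside a protein-coding gene record of at least 200 kb, overlapped no exon of any gene and started more than 1 kb from every annotated transcript start. Genes and coordinates were those of GENCODE vM1 on mm9, the build of the deposited regions, so membership within the table used position alone. The table itself joins the peaks of both genotypes, and all but 21 members had a peak in at least 1 WT_CTCF library, so called shares are read over a set drawn mostly from WT_CTCF peaks. The members fell into 888 of the 954 protein-coding records of that length. They were set beside the 52001 other regions, of which 14083 lay in introns of protein-coding genes under 200 kb by the same exon and start rules and 25877 lay outside every gene.

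CTCF was measured by chromatin immunoprecipitation and sequencing (ChIP-seq) in mouse embryonic stem cells (mESCs). The study's methods name an R1 line and list the cells with tagged CTCF, used here, separately. In all cells the endogenous CTCF carried EGFP and an auxin-inducible degron, a tag that lets auxin trigger destruction of the protein, and the degraded protein was replaced by an introduced CTCF. The introduced protein was either unmodified (WT_CTCF, 2 libraries) or O-GlcNAc-deficient through a threonine changed to alanine (MUT_CTCF, 2 libraries). An input library of each genotype was also sequenced and was not analysed here. Cells came from picked clones, so the genotype and the clone cannot be told apart, and each library averages many cells, so fewer cells with CTCF at a region and less CTCF per cell cannot be told apart either.

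The zinc fingers of CTCF recognise a long, asymmetric DNA motif, and bound CTCF stops the cohesin complex that extrudes chromatin loops. Because the motif has a direction, loop anchors most often carry motifs that point towards each other. Long genes have most of their length in introns, and many of them encode adhesion molecules, channels and synaptic proteins that mESCs transcribe weakly. O-GlcNAc is a single sugar that the enzyme OGT places on serine or threonine.

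The libraries held 49987 and 54001 peaks in WT_CTCF and 33939 and 32712 in MUT_CTCF. A region was called in a library when at least 1 bp of it overlapped a peak there. Over the whole table the called share was 86.3% and 93.4% for WT_CTCF against 58.3% and 56.2% for MUT_CTCF. The number of reads behind each peak is unknown here, so small scores carry an error that cannot be given. Peak calls and scores depend on that depth and on the spike-in scale factors that entered peak calling, neither of which is known here. Fewer calls and lower scores are therefore differences between the peak files, not a measure of how much CTCF was bound, and genotype, depth and scaling cannot be told apart.

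The strongest members showed how the motif was laid out. The region with the second highest mean among members lay in intron 4 of Erc2, which encodes a scaffold of the presynaptic active zone, and its 300 bases at the peak summits held 5 copies of 1 motif match (capitals), all on the + strand and each starting 47 bases after the one before. The window at Col23a1, a transmembrane collagen, held 2 matches that pointed towards each other. Both are shown because the number and direction of matches differ, and both come from the mm9 reference, + strand, at chr14:28617223-28617522 and chr11:51353143-51353442.
Erc2: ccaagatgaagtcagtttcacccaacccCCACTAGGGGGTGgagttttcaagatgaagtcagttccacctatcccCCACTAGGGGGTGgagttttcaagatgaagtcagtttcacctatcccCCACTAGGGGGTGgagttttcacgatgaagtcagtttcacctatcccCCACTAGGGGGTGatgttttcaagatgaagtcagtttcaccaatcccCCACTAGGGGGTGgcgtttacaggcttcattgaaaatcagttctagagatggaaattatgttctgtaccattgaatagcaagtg
Col23a1: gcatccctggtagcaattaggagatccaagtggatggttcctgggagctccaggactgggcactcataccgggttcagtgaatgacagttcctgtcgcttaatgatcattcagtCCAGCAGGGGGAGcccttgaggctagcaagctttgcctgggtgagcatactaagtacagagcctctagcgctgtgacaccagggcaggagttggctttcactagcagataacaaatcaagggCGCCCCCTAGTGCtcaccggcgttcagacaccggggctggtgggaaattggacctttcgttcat

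Further best matches are given with 14 bases on each side, read 5′ to 3′ on the strand of the motif, for regions whose scores are described further on. The first group carried the commonest match of all members, found at Ehbp1 (chr11:22215970-22216010, + strand), at Mgat5 (chr1:129306362-129306402, − strand) and at Gm20388 (chr8:124275505-124275545, − strand).
Ehbp1: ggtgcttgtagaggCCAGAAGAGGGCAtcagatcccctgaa
Mgat5: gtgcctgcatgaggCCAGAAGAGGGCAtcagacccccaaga
Gm20388: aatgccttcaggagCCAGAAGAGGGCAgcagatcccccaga

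The other group carried rarer matches, at Ankrd44 (chr1:54889745-54889785, + strand, no mismatch to the consensus), AF064781 (chr4:57893061-57893101, − strand), Pitpnc1 (chr11:107330517-107330557, − strand), Abcc4 (chr14:119101614-119101654, + strand), Rims1 (chr1:22367943-22367983, + strand) and Cdh13 (chr8:121374442-121374482, − strand), with 1 mismatch each except for Ankrd44.
Ankrd44: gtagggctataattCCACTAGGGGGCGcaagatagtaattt
AF064781: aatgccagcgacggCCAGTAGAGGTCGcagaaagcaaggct
Pitpnc1: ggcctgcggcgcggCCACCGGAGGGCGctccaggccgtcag
Abcc4: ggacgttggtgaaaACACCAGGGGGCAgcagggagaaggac
Rims1: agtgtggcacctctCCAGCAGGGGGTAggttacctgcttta
Cdh13: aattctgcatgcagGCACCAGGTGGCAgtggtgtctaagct

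A match to the CTCF core consensus, searched on both strands over 13 positions with at most 1 mismatch, was present in 3412 members (60.3%), close to the 60.6% of all other regions. Intervals of the same width 5 kb away held one in 3.16% for members and 4.57% for the others. A match without mismatch was present in 725 members (12.8%). Of the members, 3261 held 1 match and 2 held 5 or more, the regions at Erc2 and at Ctif, a gene of translation initiation whose region lies on a chromosome shown here without sequence. Matches lay at the summits: the median distance was 8.5 bp, and 96.2% of matches were within 50 bp.

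Median levels differed with the letters of the best match, although the ranges overlapped widely. The match shown at Ehbp1, Mgat5 and Gm20388 was the best one in 706 members, 20.7% of those with a match, and the same letters ending in G instead of A were the best in 360 more (10.6%). In introns of shorter genes these 2 matches together were 48.8% of all best matches, in all other regions 37.0%, and in members 31.2%. After the commonest match the next 4 bases were tcag in 310 of 706 members, so the likeness between such regions ran beyond the motif. B2 short interspersed elements are known to have spread CTCF motifs through rodent genomes; repeat annotation was not used here, and whether these members lie in such elements was not tested.

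The level of a region is given as the authors' mean, their average of spike-in scaled read counts over the 4 ChIP libraries. Its median was 68.8 in the 1066 members with either of the 2 commonest matches (interquartile range 37.0 to 137.8), 140.9 in the 2346 with any other match (69.5 to 246.4) and 63.3 in the 2249 without one. The strongest member of all, at Gm20388, carries the commonest match. Of members with either commonest match, 84.1% and 93.9% were called in WT_CTCF, compared with 52.2% and 48.0% in MUT_CTCF. For members with any other match the shares were 93.1% and 96.9% against 76.1% and 74.5%, and for those without a match 79.3% and 90.7% against 48.5% and 46.4%. The drop between genotypes was larger in members with a common match or none, the classes with the lower levels. A peak in both WT_CTCF and neither MUT_CTCF library was found for 250 members with a commonest match (23.5%), 273 with any other match (11.6%) and 458 without a match (20.4%). In all other regions these shares were 28.4%, 11.5% and 22.9%. There the MUT_CTCF libraries called 46.1% and 43.4% with a commonest match, 78.1% and 76.7% with any other and 45.4% and 43.0% without one. The dependence on the match was thus not particular to members.

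**Figure D1:**
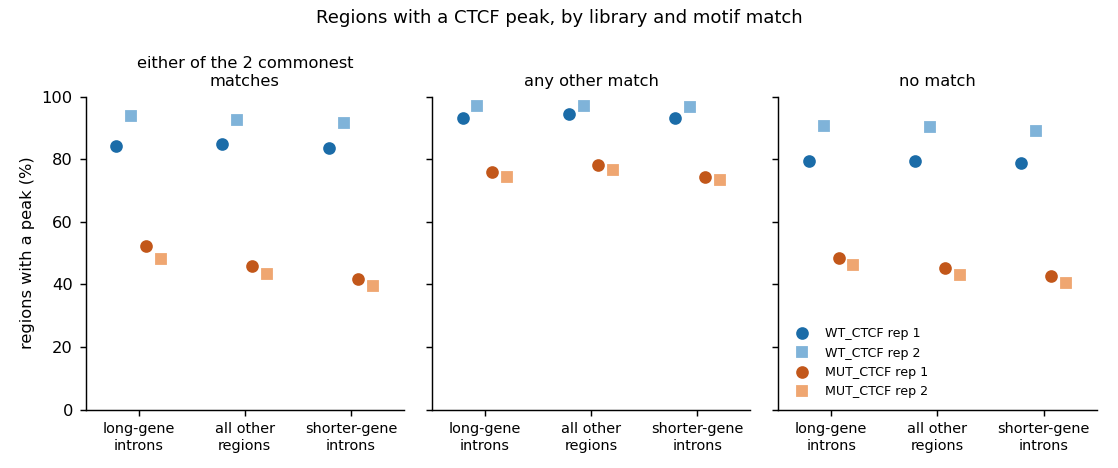
Percent of regions with a peak in each library (y axis; circles and squares are replicates 1 and 2, blue WT_CTCF, orange MUT_CTCF) for introns of long genes, all other regions and introns of shorter genes, split by the best motif match. In introns of long genes the MUT_CTCF points lie at 52.2% and 48.0% for the 2 commonest matches and at 76.1% and 74.5% for any other match.

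Among members with a match, the 725 without mismatch had a median authors' mean of 189.3, the 2687 with 1 mismatch a median of 97.0 and those without a match one of 63.3. Members without mismatch were called in 85.7% and 85.4% by MUT_CTCF library, those with 1 mismatch in 64.0% and 61.0%. In other regions the shares were 87.2% and 86.1% without mismatch and 60.7% and 58.6% with 1 mismatch. In the 601 members without mismatch that had a peak in all 4 libraries, the median peak score was 673 and 689 in WT_CTCF and 331 and 290 in MUT_CTCF. In the 939 members without a match that had a peak in all 4 libraries it was 392 and 424 against 176 and 175. The levels thus differed between these classes, while the median log2 difference between genotypes was −1.15 in the one and −1.12 in the other. These 601 and 939 members were 82.9% and 41.8% of their classes. Regions without a peak in every library, a larger share of the class without a match, are left out of these scores and differences.

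Hosts differed widely in the number of regions they held. The median host held 5 members, 96 records held 1, 148 held at least 10, and these 148 together held 2444 members. Some annotation records stand apart from single genes. The record of Gm20388 covers 4435 kb of chromosome 8 (122434741 to 126869622, + strand), contains 72 other protein-coding records and held 214 members, and that of Fgfr2, a receptor for fibroblast growth factors, covers 3009 kb of chromosome 7 (137305965 to 140315033, − strand), contains 31 and held 82. Their 296 members lie in introns of these records, many of which are also the space between other genes, so the comparisons were repeated on the remaining 5365, and the called share and calling pattern moved by less than 1 percentage point.

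Next came Cdh13, which encodes a GPI-anchored cadherin, with 38 members over 1041 kb, Fry, a furry homologue tied to cell shape, with 37 over 379.1 kb, and Camta1, a calmodulin-binding transcription activator, with 34 over 802.4 kb. Of the 38 members in Cdh13, 32 and 37 were called in WT_CTCF against 23 and 24 in MUT_CTCF. In Fry the numbers were 32 and 35 against 28 and 27, and in Camta1 30 and 32 against 26 and 26. In each of these 3 genes both MUT_CTCF libraries had fewer called members than both WT_CTCF libraries. The same held over the whole table, with 86.3% and 93.4% called in WT_CTCF against 58.3% and 56.2% in MUT_CTCF. Motif strand was uneven in 2 of them: 5 of 28 matches in Cdh13 and 7 of 25 in Camta1 lay on the gene's own strand, against 14 of 24 in Fry.

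**Figure D2:**
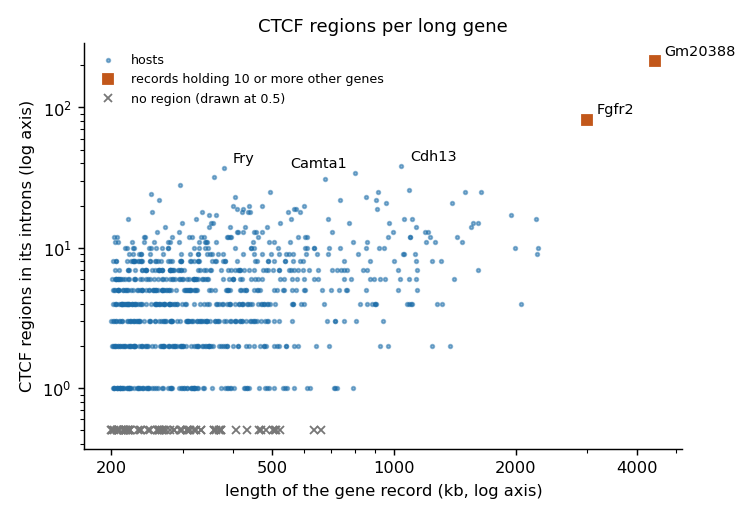
Number of CTCF regions in introns (y axis, log) against length of the gene record in kb (x axis, log) for 954 protein-coding records of at least 200 kb; crosses mark the 66 records without a region. Gm20388 (214) and Fgfr2 (82), the records that contain 10 or more other genes, lie apart from the rest, whose highest count is 38.

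By density, among hosts with at least 5 members, Fry led with 9.76 members per 100 kb, followed by Dnahc8, an axonemal dynein heavy chain, with 9.57 (24 members), and Skap1, an adaptor of T cell receptor signalling, with 9.50 (28 members). No member was found in 66 long records. The 3 longest of them were Nkain3 (660.0 kb, chromosome 4), which encodes a protein that interacts with the sodium pump, Fstl5 (635.8 kb, chromosome 3), a secreted follistatin-like protein, and Skint5 (521.6 kb, chromosome 4). Density fell with length: records of 200 to 300 kb held 18.1 members per Mb, those of 300 to 500 kb 14.8, those of 500 kb to 1 Mb 11.1, and those over 1 Mb 11.3, or 8.08 without the Gm20388 and Fgfr2 records. At the length limit, Pcbp3, the shortest record over it with a region, held 3 members and 4930402H24Rik (200.2 kb) 6, while Morc1 (199.7 kb) and Clec16a (199.5 kb), just under it, held 3 and 4 such regions.

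Level hardly followed gene length. The median authors' mean of all members was 89.8 (interquartile range 43.3 to 182.3), compared with 95.8 in all other regions and 75.8 in introns of shorter genes. Across the 4 length classes it ran from 83.0 to 94.5, with 79.5 for records over 1 Mb without Gm20388 and Fgfr2. The strongest members were the region at Gm20388 with a mean of 2890 and those at Erc2 with 2169 and Ctif with 2029. The region at Col23a1 followed with 1914 and another at Gm20388 with 1910. Both Gm20388 regions lay in intron 1 of that record, which contains 72 other protein-coding records. They were 1.503 and 2.209 kb from the nearest transcript start, beside a median of 31.994 kb over all members. Members were poorer in G+C than other regions (median 44.4% against 45.7%) and had 0.912 CpG per 100 bp against 1.12, close to introns of shorter genes with 44.6% and 0.954. Their median width was 433 bp against 454 bp in other regions and 422 bp in introns of shorter genes.

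Fewer members were called in MUT_CTCF than in WT_CTCF. Of the 5661 members, WT_CTCF replicates called 4866 (86.0%) and 5313 (93.9%), and MUT_CTCF replicates 3431 (60.6%) and 3302 (58.3%). The genotypes did not overlap: the WT_CTCF mean was 89.9% ± 5.58 (SD, n = 2) and the MUT_CTCF mean 59.5% ± 1.61 (SD, n = 2), a difference of −30.4 percentage points. With 2 libraries against 2, the exact two-sided permutation test gave p = 0.333, the smallest it can give, so no comparison of shares here could pass 0.05. In all other regions the difference was −32.9 points and in introns of shorter genes −36.7 points.

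In the WT_CTCF libraries members were called about as often as other regions, with differences of −0.405 and 0.464 points, while in MUT_CTCF they were called 2.59 and 2.41 points more often. Against introns of shorter genes the differences were 0.861 and 1.44 points in WT_CTCF and 7.67 and 7.25 points in MUT_CTCF, larger in both MUT_CTCF than in both WT_CTCF libraries (exact permutation p = 0.333, the smallest possible). These differences changed with the peaks counted. Among regions with an authors' mean of at least 50, the surplus over other regions was 2.32 points larger in MUT_CTCF than in WT_CTCF, beside 2.47 for all. With only peaks at or above the pooled median score of 250, members were called in 44.0% and 46.5% in WT_CTCF and in 24.8% and 23.2% in MUT_CTCF, and introns of shorter genes in 39.6% and 41.7% and in 22.8% and 21.8%, so the lead of members became smaller in MUT_CTCF, not larger. Other regions were then called in 46.0% and 47.9% in WT_CTCF and in 28.19% and 26.99% in MUT_CTCF. Members were thus below them in all 4 libraries and more so in MUT_CTCF.

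From a mean of 25 upwards, fewer calls were lost the higher the level of the region. Among the 1218 members with an authors' mean of 25 to 50, 64.0% and 82.6% were called in WT_CTCF and 5.09% and 2.38% in MUT_CTCF. Below 25 the difference was smaller, −53.2 against −69.5 points. Of those 466 members, the WT_CTCF libraries called only 32.8% and 74.0%, and the MUT_CTCF libraries 0% and 0.43%. Among the 1366 members with an authors' mean of 50 to 100, 96.9% and 98.9% were called in WT_CTCF and 57.2% and 50.6% in MUT_CTCF. Among the 1370 members with a mean of 100 to 200, all were called in both WT_CTCF libraries and 98.2% and 97.7% in MUT_CTCF, and the 1040 members with a mean of 200 to 400 and the 201 above were all called in every library. The other regions called in MUT_CTCF in the same bands were 49.2% and 41.6% (mean 50 to 100) and 93.3% and 92.7% (100 to 200). The mean includes the MUT_CTCF libraries, so a region lost there also has a lower mean.

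**Figure D3:**
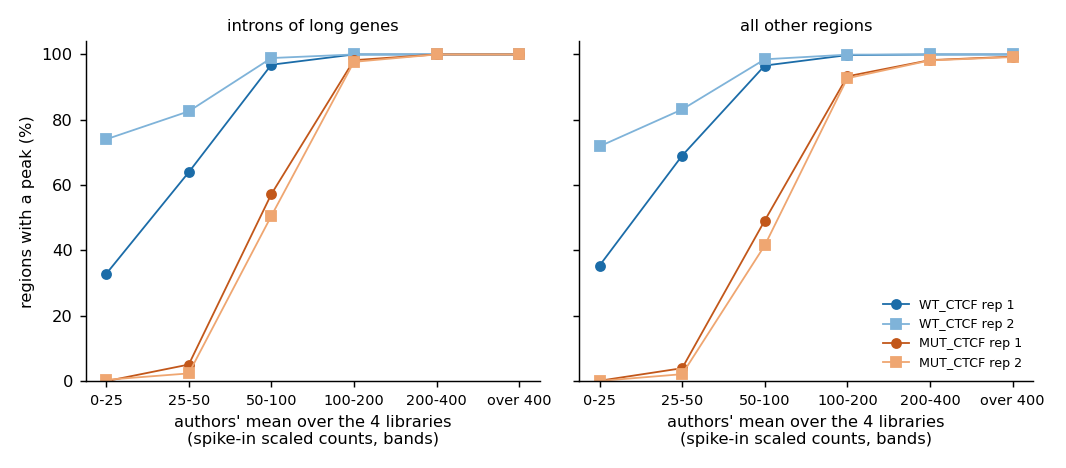
Percent of regions with a peak in each library (y axis) by band of the authors' mean over the 4 libraries (x axis), for introns of long genes and for all other regions; colours and symbols give the library. In the 50 to 100 band of long-gene introns the WT_CTCF points lie at 96.9% and 98.9% and the MUT_CTCF points at 57.2% and 50.6%.

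By calling pattern, 3075 members (54.3%) had a peak in all 4 libraries, beside 52.6% of all regions, and 981 (17.3%) in both WT_CTCF and neither MUT_CTCF library, against a background of 19.5% of all 57662 regions. No member had a peak in both MUT_CTCF and neither WT_CTCF library, where the background is 0.033% (19 regions). A further 1055 members (18.6%, beside 19.0% of all regions) were called in 1 library only, 1034 of them in a WT_CTCF and 21 in a MUT_CTCF library. In introns of shorter genes 47.2% of regions were called in all 4 libraries and 22.3% in WT_CTCF alone. With only peaks at or above the pooled median score, members were called in all 4 libraries less often than other regions (21.5% against 25.2%).

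The WT_CTCF-only members with the highest scores lay in Ankrd44, Palld and Mgat5. Ankrd44 encodes an ankyrin-repeat subunit of a protein phosphatase, and the region in its intron 1 scored 394 and 534 in WT_CTCF. Palld encodes the actin-associated protein palladin, and its region in intron 2 scored 520 and 362. Mgat5 encodes an enzyme that branches N-glycans, and its region in intron 11 scored 442 and 345. All 3 had no peak in either MUT_CTCF library, although the first holds a match without mismatch 2.5 bp from the WT_CTCF summit and the third the commonest match.

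Where all 4 libraries had a peak, its score in the peak files was lower in MUT_CTCF. The score is the value in the peak files; higher scores are stronger peaks, and its exact definition is not given in the sources used here. The median over the 3075 members was 471 and 504 in WT_CTCF and 212 and 212 in MUT_CTCF, without overlap between genotypes. Over the 27242 other regions it was 586 and 637 against 269 and 254. On the log2 scale the median of members minus that of other regions was −0.33 ± 0.02 for WT_CTCF (SD, n = 2) and −0.30 ± 0.06 for MUT_CTCF (SD, n = 2), so the gap differed by 0.02 between genotypes (exact permutation p = 1). The score drop per region had a median of −1.14 for members and −1.19 for the others.

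In limma on log2 scores over the 30317 regions with a peak in all 4 libraries, 2728 of 3075 members had a lower score in MUT_CTCF at an adjusted p under 0.05, where the background is 90.4% of all regions tested, and 2 had a higher one, where the background is 0.0627%. Both WT_CTCF scores were above both MUT_CTCF scores in 2943 members, against a background of 96.2%. Lower scores were thus a feature of nearly all regions tested. For the fits without 1 library that follow, the share of all regions is not given here. Without WT_CTCF replicate 2 the fit called 0 members and without WT_CTCF replicate 1 it called 1083. At an unadjusted p under 0.05 the 2 fits still had 1697 and 1885.

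After each library's median log2 score was subtracted, 68 members were lower and 61 higher in MUT_CTCF, against backgrounds of 3.22% and 1.95% of the 30317 regions. The median relative difference was 0.07 for members (interquartile range −0.26 to 0.36) and 0.03 for the others. The balance depended on the fit: 170 members were lower and 318 higher with a mean-score trend, and 52 and 195 among regions at or above the median score. The backgrounds above belong to the main fit. Shares of all regions in these and the following fits are not given here, so these counts are not a result about members. At or above the median score, the median relative difference was 0.16 for members and 0.11 for the others. The calls also depended on the libraries: without WT_CTCF replicate 1 or without WT_CTCF replicate 2 none of them passed in limma, where 495 and 472 members still had an unadjusted p under 0.05.

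The members with the smallest p among those relatively lower were at Ehbp1, AF064781 and Pitpnc1. Ehbp1 encodes an adaptor of endocytic traffic; its region scored 439 and 553 in WT_CTCF and 58 and 58 in MUT_CTCF, a relative log2 difference of −1.87 ± 0.19 (SE; limma adjusted p = 0.0228). The region in intron 8 of AF064781 scored 918 and 672 against 74 and 74, a relative difference of −2.20 ± 0.24 (SE; limma adjusted p = 0.0228). Pitpnc1 encodes a phosphatidylinositol transfer protein. Its region in intron 1, 1.26 kb from a transcript start, scored 645 and 677 against 94 and 76, a relative difference of −1.75 ± 0.19 (SE; limma adjusted p = 0.0228).

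Those relatively higher were weak peaks at Large, Abcc4 and Rims1. Large encodes a glycosyltransferase of dystroglycan; its region in intron 12 scored 80 and 71 in WT_CTCF and 129 and 96 in MUT_CTCF, a relative difference of 1.77 ± 0.22 (SE; limma adjusted p = 0.0228). Abcc4 encodes an efflux transporter; its region in intron 1 scored 42 and 37 against 95 and 58, a relative difference of 2.12 ± 0.27 (SE; limma adjusted p = 0.0228). Rims1 encodes a regulator of neurotransmitter release; its region in intron 28 scored 72 and 134 against 176 and 187, a relative difference of 2.1 ± 0.28 (SE; limma adjusted p = 0.0247). Without subtraction of the library medians, the regions at Abcc4 and Rims1 were the 2 members called higher, with limma adjusted p of 0.0211 and 0.0367, and the one at Large had 0.0505. The call at Abcc4 was lost with a mean-score trend (limma adjusted p = 0.0804). That at Rims1 was lost with a peak in at least 1 library of each genotype (limma adjusted p = 0.0614). Without 1 library the log2 differences ran from 0.557 to 1.27 at Abcc4 and from 0.437 to 1.33 at Rims1.

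The strongest members, taken by a mean that includes both genotypes, also had lower scores in MUT_CTCF, and 3 of 5 passed in the main fit. At Gm20388 the region with the highest mean scored 13705 and 12804 in WT_CTCF and 9080 and 8351 in MUT_CTCF, a log2 difference of −0.61 ± 0.18 (SE; limma adjusted p = 0.0205). At Erc2, with its row of 5 matches, the scores were 8037 and 9631 against 6331 and 6590, a log2 difference of −0.45 ± 0.19 (SE; limma adjusted p = 0.0674). At Ctif they were 6789 and 7782 against 5747 and 5171, which did not pass (limma adjusted p = 0.0802). At Col23a1 they were 8779 and 9292 against 4293 and 4853, and at the other Gm20388 region, which held no match, 7282 and 7983 against 3765 and 3529; both passed (limma adjusted p = 0.00408 and 0.00315). With a mean-score trend the regions at Erc2 and Ctif also passed as lower on scores (limma adjusted p = 0.00145 and 0.00231). Both passed as lower among regions at or above the median score too (limma adjusted p = 0.0278 and 0.0365). Relative to the library medians none of the 5 passed in the main fit, with limma adjusted p from 0.0565 to 0.639. With a mean-score trend, and among regions at or above the median score, the strongest at Gm20388 and those at Erc2 and Ctif did pass as relatively higher (limma adjusted p = 0.0236, 0.0081 and 0.00622 among the latter). For the strongest Gm20388 region the relative difference was 0.61, and it was −0.36 when the mean score of overlapping peaks was taken.

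In the hosts with most members, the strongest regions were added after their values were seen. The one in the Fgfr2 record lay 2.75 kb from a transcript start and in no intron of that record's transcript with most exons. Its scores were 1282 and 1795 in WT_CTCF and 601 and 533 in MUT_CTCF. The region at Cdh13 scored 2410 and 2234 against 1379 and 1108, and that at Camta1 1509 and 1833 against 902 and 720. All 3 passed in limma on scores (adjusted p = 0.00275, 0.00693 and 0.00548). The strongest region of Fry scored 2315 and 2553 against 2024 and 1868, which did not pass (limma adjusted p = 0.14) and was higher relative to the library medians, by 0.89 ± 0.18 (SE; limma adjusted p = 0.0457). That call was lost when any 1 library was left out (limma adjusted p = 0.0658 to 0.221) and with a peak in at least 1 library of each genotype (0.0604).

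**Figure D4:**
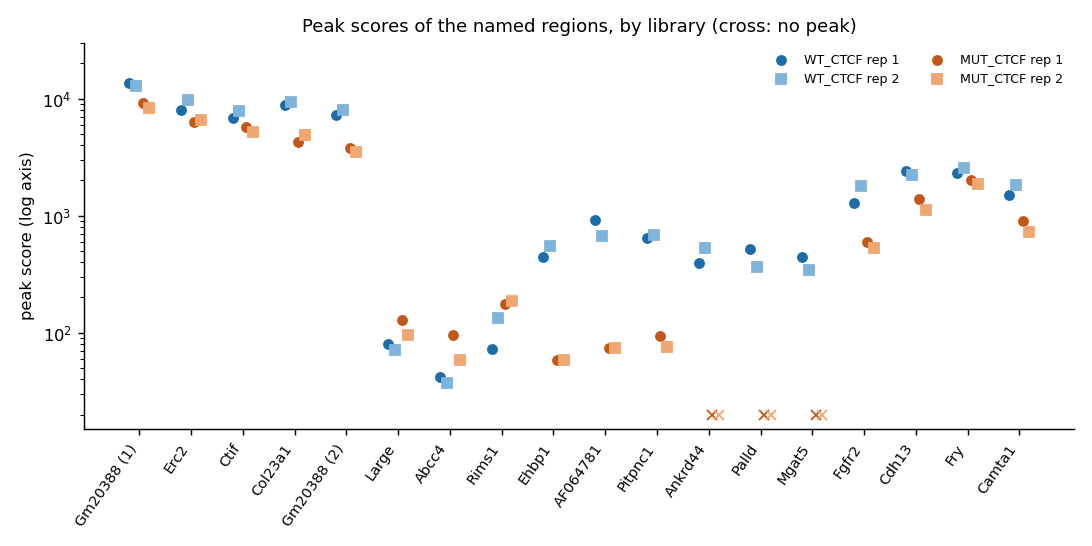
Peak score (y axis, log) of the named members in each library; blue is WT_CTCF, orange MUT_CTCF, circles and squares are replicates 1 and 2, and a cross marks no peak. Scores at Ehbp1, AF064781 and Pitpnc1 lie between 439 and 918 in WT_CTCF and between 58 and 94 in MUT_CTCF, and those at Large, Abcc4 and Rims1 are higher in MUT_CTCF.

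Motif direction changed along the gene. Over all members with a match, 1712 of 3412 (50.2%) had the motif on the strand of the host gene. In segment 1, the 20% of the record next to its start, the share was 59.9% of 711, in segment 2 56.0% of 607, in segment 3 52.1% of 637, in segment 4 45.1% of 616 and in segment 5 39.9% of 841. Motifs near either end therefore pointed more often into the gene than out of it. Without the Gm20388 and Fgfr2 records the shares ran from 60.3% to 38.8%, and in members with an authors' mean of at least 50 from 60.3% to 39.3%. In introns of shorter genes they ran from 60.8% to 47.6%. With 725 matches without mismatch the steps were uneven, at 53.0%, 58.1%, 57.9%, 36.9% and 38.0%. Regions in 1 gene are not independent, and no test was made.

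**Figure D5:**
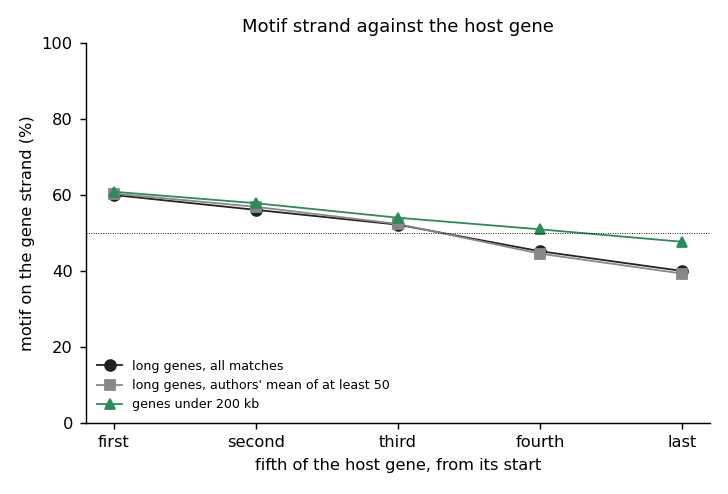
Percent of motif matches on the strand of the host gene (y axis) in 5 segments of the gene from its start to its end (x axis), for all members with a match, for those with an authors' mean of at least 50, and for introns of genes under 200 kb; the dotted line is at 50%. The line for all members falls from 59.9% to 39.9%, and that for shorter genes from 60.8% to 47.6%.

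Members were spread over the whole gene with somewhat more at its ends. The first 10% of the record held 10.8% of members and the last 10% held 12.4%, while the steps between ran from 8.83% to 11.0%. The median level was highest in the last step (107.3) and between 81.5 and 98.8 elsewhere. Against the transcript with most exons of each host, 1134 members lay in the first intron, 2844 in the fourth or a later one, and 487 in none of its introns. Introns of at least 100 kb held 1882 members. Neighbouring members of 1 gene were a median of 23.3 kb apart (interquartile range 7.81 to 60.2 kb). Of the 2596 neighbouring pairs that both had a match, 1381 pointed the same way, 615 towards each other with a median of 47.7 kb between them, and 600 away from each other with a median of 23.6 kb.

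The peaks of MUT_CTCF were narrower but sat at the same places. Over members called in a library, the median peak width was 407 and 417 bp in WT_CTCF and 360 and 346 bp in MUT_CTCF, a difference of −59 bp (exact permutation p = 0.333, the smallest possible). Over the 3075 members with a peak in all 4 libraries it was 492 and 515 bp against 381 and 362 bp, a difference of −132 bp. In other regions the 2 differences were −55.5 and −148 bp, so the narrowing was not particular to members. Summits of the genotypes were a median of 8 bp apart, beside 8 bp between WT_CTCF and 9 bp between MUT_CTCF replicates. They were more than 100 bp apart in 16 of 3075 members (0.52%). In other regions the genotypes' summits were a median of 8.5 bp apart, and 1.01% were more than 100 bp apart. The median distance from motif to summit was 10 bp in each of the 4 libraries.

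Gene families among the hosts were described with 6 lists written from general knowledge of gene function. Their counts below are to be read against all 30317 regions tested, of which 90.4% were lower on scores, 3.22% relatively lower and 1.95% relatively higher. The share lower on scores ran from 84.4% (transcription and chromatin regulators) to 90.0% (adhesion and axon guidance) over the lists. Adhesion and axon guidance genes were long and sparse in regions: 68 of 71 long records had a member, at 8.49 members per Mb, compared with 14.1 over all long records. Cdh13 led with 38, followed by Csmd1, a membrane protein with complement control domains, with 25, and Slit3, a ligand of Robo receptors, with 18. Of their 250 members with a peak in all 4 libraries, 225 (90.0%, beside 90.4% of all regions) were lower in MUT_CTCF in limma on scores and 0 higher, and relative to the library median 6 were lower and 3 higher.

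Common fragile site genes, which are very long and break under replication stress, held 7.95 members per Mb and had the lowest median authors' mean of the lists, 69.0. They had a peak in all 4 libraries for 93 of 197 members and in WT_CTCF alone for 43 (21.8%), the highest share of the lists, beside the 19.5% of all regions. Wwox, which encodes an oxidoreductase, led with 25 members, followed by Dlg2, a postsynaptic scaffold, with 17 and Cntnap2, a neurexin relative, with 16. In Wwox, 20 and 25 of 25 were called in WT_CTCF and 16 and 16 in MUT_CTCF. Relative to the library median 0 members of this list were lower and 4 higher in limma, beside 3.22% and 1.95% of all regions, and on scores 81 of the 93 were lower (87.1%, beside 90.4%).

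Ion channels and receptors held 10.1 members per Mb, led by Cacna1a, a presynaptic calcium channel subunit, with 18 and by Ryr2, the heart's calcium release channel, and Kcnip1, a potassium channel partner, with 11 each. In Cacna1a, 16 and 16 members were called in WT_CTCF and 11 and 9 in MUT_CTCF. Of the list's 129 members with a peak in all 4 libraries, 116 were lower on scores (89.9%, beside 90.4% of all regions), and relative to the library median 5 were lower and 5 higher. Muscle and extracellular matrix genes held 9.24 per Mb, led by Thsd4, a fibrillin-binding protein, with 16, before Ryr2, which is in both lists, and Col23a1 with 11 each. Of their 73 members with a peak in all 4 libraries, 64 were lower on scores (87.7%), and relative to the library median 1 was lower and 1 higher.

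Transcription and chromatin regulators and signalling and scaffold genes were denser, with 15.1 and 16.0 members per Mb. Rora, a nuclear receptor, had 22 members, Sox5, an HMG-box factor, 21, and Tshz2, a zinc finger factor, 20. Of the regulators' 141 members with a peak in all 4 libraries, 119 were lower on scores (84.4%, beside 90.4% of all regions) and 0 higher, and relative to the library median 2 were lower and 5 higher. Among signalling genes the Fgfr2 record, which contains 31 other protein-coding records, led with 82. Camta1 followed with 34 and Pde4d, a cAMP phosphodiesterase, with 25. Of their 422 members with a peak in all 4 libraries, 371 were lower (87.9%), and relative to the library median 11 were lower and 12 higher. In all 6 lists the median log2 score difference lay between −1.15 and −1.09, against −1.18 over all 30317 regions.

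The comparison with other regions changed with base composition. In members below 40% G+C the MUT_CTCF libraries called 61.9% and 59.7% against 50.9% and 48.5% of other regions below 40%, and their median authors' mean was 89.3 against 68.5. In members of at least 50% G+C they called 53.8% and 52.2% against 57.1% and 55.8%, with a median mean of 77.3 against 120.5. The gap between members and other regions in MUT_CTCF thus had opposite signs at the ends of the G+C range. The 117 members on the X chromosome had a median authors' mean of 68.0, and 41.0% of them were called in all 4 libraries, compared with 54.6% of the 5544 on autosomes. Other regions were also lower on the X chromosome, with 46.5% against 52.5% called in all 4 libraries.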

How the data were processed

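Processed ChIP-seq files of 4 CTCF libraries (2 WT_CTCF, 2 MUT_CTCF) were used. According to the submitters' processing notes and the study's methods, reads were trimmed with Trim Galore 0.4.4, aligned to mm9 with Bowtie2 2.3.4.1, and peaks were called per library with MACS2 2.1.1.20160309 after multiplication by Drosophila spike-in scale factors, whose values are not given in the sources used here; WT_CTCF and MUT_CTCF peaks were joined, and reads over the joined regions were counted with bedtools and compared with DESeq2 1.38.0. The cutoff and the definition of the peak score are not given in the sources used here. The deposited table gave, as a signal, the authors' mean of scaled counts per region; its remaining columns hold the authors' own fold changes, errors, test statistics and p-values and were not used. The deposited peak files gave for each library the position, the score and the summit of every peak.

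Each region took the highest score among the peaks overlapping it by at least 1 bp. Shares, medians and widths were compared over libraries with the exact two-sided permutation test. Scores were tested with limma 3.58.1 (R 4.3.3) on log2 values over the 30317 regions with a peak in all 4 libraries, with Benjamini-Hochberg adjustment over all of them and no pseudocount. The fit was also run on simulated scores with independent normal noise. That setting meets the fit's own assumptions, so the run does not test them. GENCODE vM1 and NCBIM37 (mm9) gave genes and sequence. The libraries were labelled as replicates of each genotype, and p-values measure only the spread between them. The main fit did not pair libraries by replicate number.

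The members and the gene lists were chosen with earlier results of these data known. Named regions were the 5 members with the highest mean, the 3 with the smallest p in each direction of the relative fit and the 3 WT_CTCF-only members with the highest scores, to which the strongest region of each of the 5 hosts with most members was added after values were seen; named genes were the 5 hosts with most members, the 3 densest, the 3 longest records without a member, those next to 200 kb, and the 3 hosts with most members of each list. Alternatives varied the overlap, the score limit, the host length, the start distance, the fit, the motif and the libraries; those without the Gm20388 and Fgfr2 records, against other comparison sets or limited by the authors' mean were added after seeing the data.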

Additional observations from a re-analysis of the deposited data

How the results depend on the processing

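The difference of the called share between genotypes kept its direction under every alternative run, from −40.1 points with a reciprocal overlap of 50% to −21.3 with only peaks at or above the pooled median score, and from −34.4 to −26.5 when 1 library was left out. The surplus of members over other regions in that difference (2.47 points) was 2.81 with the reciprocal overlap, 2.14 with hosts of at least 400 kb and 0.057 with hosts of at least 100 kb, and it was reversed to −1.86 with only peaks at or above the pooled median; leaving out 1 library gave 2.04 to 2.90. Alternatives added after seeing the data gave 6.31 against introns of shorter genes, reversed to −2.92 with only peaks at or above the pooled median, 1.12 against intergenic regions, 2.32 at an authors' mean of at least 50 and 2.33 without the Gm20388 and Fgfr2 records. The gap in median log2 score (0.02) was reversed to −0.011 against introns of shorter genes and lay between −0.02 (without MUT_CTCF replicate 2) and 0.07 without 1 library. The width difference lay between −66 and −52 bp without 1 library.

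Against 2730 members called on scores, 1217 were called with only regions at or above the median score, where fewer were tested, and 0 to 2135 without 1 library, which leaves 1 residual degree of freedom. Against 129 called relative to the library median (68 lower, 61 higher), the totals in other fits were 54 with a peak in at least 1 library of each genotype (35 and 19), 488 with a mean-score trend (170 and 318), 247 at or above the median score (52 and 195), 0 at an adjusted p of 0.01 and 0 to 117 without 1 library; the cause of the rise under the trend was not tested. The replicate block gave 2750 and 89 members in limma. The share of all regions called in each of these alternative fits is not given here, so the changes in the counts are not a result about members. The exact sign-flip permutation test under the replicate block gave p = 0.5 for the called share, the smallest it can give. The numbers did not pair the libraries (correlation of deviations −0.0033). With only peaks at or above the pooled median, 1219 members (21.5%) were called in all 4 libraries, against 25.2% of other regions. With all peaks the shares were 54.3% and 52.4%. Calls in both WT_CTCF and neither MUT_CTCF library were 15.6% of members and 14.5% of other regions with only these peaks. With all peaks they were 17.3% and 19.8%, so both contrasts with other regions were reversed. The motif share was 12.8% without mismatch and 66.5% at an authors' mean of at least 50. The relative difference of the strongest Gm20388 region was reversed to −0.36 with the mean score of overlapping peaks. Depth is unknown here, which limits what can be said of weak peaks.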
